A study of Mus musculus with 6 samples.

Results

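Glycolysis splits glucose into pyruvate, lactate dehydrogenase turns pyruvate into lactate, and the pentose phosphate pathway branches off after the first step to make NADPH and ribose for nucleotides. The 32 genes described here encode this route in the mouse: glucose uptake, the glycolytic enzymes, lactate production and export, the gate from pyruvate to the mitochondria, and the pentose phosphate branch. They were chosen by symbol, as a list of enzymes and transporters, and make up 32 of the 41214 rows of the deposited table. The list was drawn up with earlier results of these data known, so its counts are not those of a list chosen without the data. All 32 symbols were found, and 30 of the genes had enough counts to be tested. Endothelial cells are known to make most of their ATP by glycolysis even where oxygen is plentiful, and sprouting vessels depend on it.

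RNA was profiled from endothelial cells of mouse embryonic hearts with or without Dll4, a Notch ligand of endothelial cells that restrains sprouting and takes part in artery formation. Every group carried Pdgfb-iCreERT2-IRES-EGFP, in which the Pdgfb promoter drives a tamoxifen-inducible Cre recombinase together with green fluorescent protein. The KO group (genotype Dll4-/-) came from crosses with floxed Dll4 in both parents, the het group (Dll4+/-) from Cre-carrying floxed mice crossed to wild type, and the wt group from Cre-carrying mice without floxed Dll4. In all groups the dams received tamoxifen at E13.5 (embryonic day) and embryos were collected at E14.5, so Cre had been active for at most 1 day, and heart cells positive for CD31 and green fluorescence were sorted. Each group had 2 libraries, named KO 1 and 2, het 2 and 3, and wt 4 and 5. The labels mention several litters but do not say which embryos or how many hearts a library holds, so p-values measure only the spread between these libraries, which may be technical.

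The libraries held 6501798 and 4988014 counts in KO, 1537908 and 3165552 in het, and 2521534 and 1732136 in wt. Levels are given as CPM, counts scaled to a common library size after TMM normalization. Dll4 itself averaged 16.5 ± 3.97 CPM in KO, 83.5 ± 3.30 in het and 189.5 ± 9.33 in wt (SD, n = 2 each), in the order of the labels. The KO libraries stood apart in more than Dll4: Lars2, a mitochondrial leucyl-tRNA synthetase, took 0.0572% and 0.0611% of KO counts against 16.3% to 17.1% in the other 4 libraries, and mitochondrial ribosomal RNA took 0.108% and 0.0954% against 1.33% to 3.22%. No label names a batch, and a difference in how the KO libraries were handled cannot be told apart from genotype. Of the endothelial markers, Pecam1, which encodes CD31, had 868.3 ± 33.9 CPM in KO, 733.9 ± 25.7 in het and 825.9 ± 11.3 in wt and was not called in KO against wt (log2 0.07, adjusted p = 0.576). Of the 12 listed endothelial markers, 2 were higher in KO against wt (Tek and Kdr) and 5 lower (Cdh5, Erg, Eng, Flt1 and Emcn). Among all tested genes 14.7% were higher and 17.3% lower. Scaling by library size alone, that is by total counts with Lars2 included, gave 6 higher and 3 lower (Cdh5, Erg and Eng), beside 35.4% and 9.44%. The median log2 fold change of all tested genes in KO against wt was then 0.35, against -0.02 with TMM. Cdh5, the endothelial cadherin, had 400.9 ± 28.1 CPM in KO, 1859.0 ± 71.7 in het and 1954.7 ± 37.5 in wt (log2 -2.29 ± 0.09, adjusted p = 1.87e-13). Together the 12 held 6635.3 and 6439.1 CPM in KO, 7448.6 and 7844.1 in het, and 8153.6 and 7892.8 in wt. Both KO sums were lowest, but this order rests on Cdh5, which had 420.8 and 381.0 CPM in KO and 1808.3 to 1981.2 in het and wt. Without Cdh5 neither KO sum would be lowest, so the order does not describe the endothelial markers as a set. Markers of other cells were also detected, and some moved with the groups. The 14 cardiomyocyte genes together held 61.1 and 52.6 CPM in KO, 247.1 and 196.5 in het, and 127.6 and 114.5 in wt. The 14 mural and fibroblast genes together held 181.8 and 133.3 CPM in KO, 291.3 and 390.5 in het, and 187.9 and 237.3 in wt. Both sums were lowest in KO and highest in het, without overlap. The 11 macrophage and leukocyte genes held 73.5 and 36.4 CPM in KO, 357.8 and 117.7 in het, and 60.2 and 136.5 in wt, and the 14 erythroid and platelet genes 167.1 to 431.5 in all libraries. In KO against wt 4 of 10 tested cardiomyocyte genes, 3 of 9 mural genes and 2 of 9 macrophage genes were lower, beside 17.3% of all tested genes. Only 1 mural gene was higher, beside 14.7% of all tested genes. With scaling by library size alone 2, 1 and 1 were lower, beside 9.44% of all tested genes. Their part in the values below was not tested. In bulk libraries, fewer cells of a type and less RNA per cell cannot be told apart.

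Most genes of the glucose-to-lactate route were higher in KO than in wt, while the pentose phosphate branch was divided. Of the 30 tested genes, 18 were higher and 3 lower in KO against wt at an adjusted p under 0.05, where 14.7% of all 10952 tested genes were higher and 17.3% lower (edgeR quasi-likelihood test with Benjamini-Hochberg adjustment over all tested genes, which is the source of every adjusted p below). The median log2 fold change of the 30 genes was 0.58, against -0.02 for all tested genes. Both KO libraries lay above both wt libraries for 23 of the 30 genes (76.7%), against 33.2% of all tested genes, and below them for 5 (16.7%), against 34.5%. The 20 genes from glucose uptake to lactate export together held 17083.7 ± 425.3 CPM in KO, 11839.7 ± 962.7 in het and 11368.0 ± 234.8 in wt (SD, n = 2 each). The 6 pentose phosphate genes together held 558.7 ± 26.4 CPM in KO, 742.0 ± 44.5 in het and 657.9 ± 17.4 in wt. Of these sums Taldo1 alone made up 132.5 CPM in KO, 270.5 in het and 205.6 in wt. Without Taldo1 the het and wt sums would overlap, and KO 2 would lie only just below them. Exons of 12 members overlap another gene, and as strand is not marked, reads from the shared stretch cannot be told apart. The counts of 12 members were not whole in at least 1 library.

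**Figure D1:**
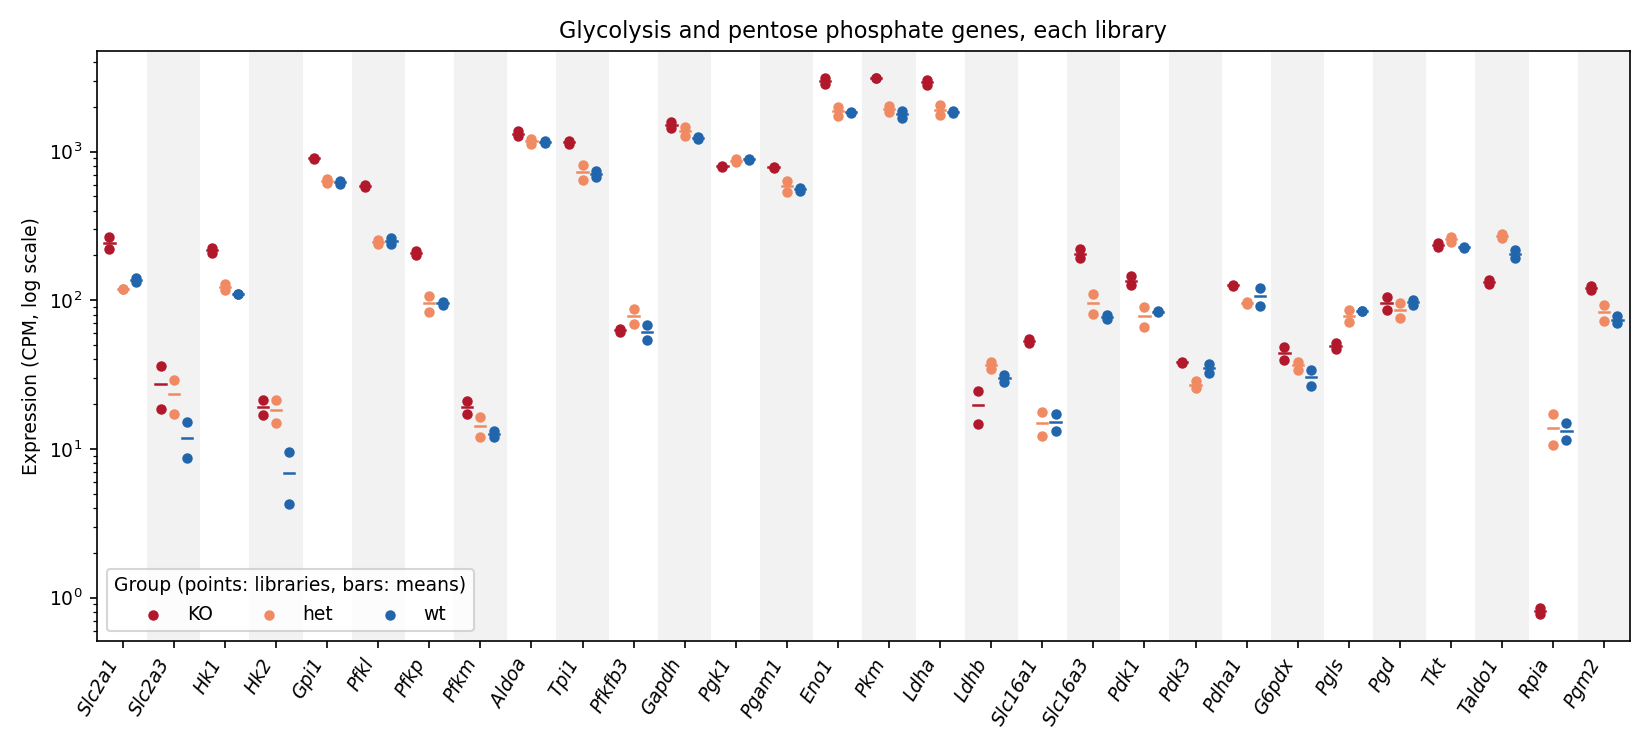
Expression in CPM on a log axis for the 30 tested genes in pathway order, with a point for each library and a bar at each group's mean, KO left of het and het left of wt. The KO points of Pfkl, at 580.0 and 598.1 CPM, stand well above het and wt, while those of Rpia, at 0.779 and 0.848 CPM, stand far below.

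Per kilobase of merged exons, the scale used here to compare genes, Ldha was highest in every group, at 881.1 CPM per kb in KO, 573.9 in het and 558.6 in wt. Merged exons pool every annotated transcript of a gene, giving 4.13 kb for Gapdh and 2.24 kb for Pgk1. The order of genes on this scale therefore depends on the annotation as well as on abundance. The next in KO were Pkm at 627.2 and Eno1 at 553.0 CPM per kb, ahead of Aldoa at 452.7. In wt the order was Aldoa at 396.7, Pgk1 at 394.2 and Pkm at 354.8 CPM per kb. Rpia was the lowest tested member in KO, at 0.152 CPM per kb, against 2.59 in het and 2.46 in wt.

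The promoters of the genes that rose most clearly in KO are shown because these genes moved together and because hypoxia-inducible factors and Myc, known regulators of glycolysis, bind short motifs in promoters. The 300 bases from 250 before to 50 after each start come from RefSeq on GRCm38.p6, read 5′ to 3′ on the gene's strand. They are, in order, Pfkl (chr10:78009758-78010057, minus strand), Slc16a3 (chr11:120948817-120949116, plus strand), Pkm (chr9:59656326-59656625 and chr9:59656977-59657276, plus strand, for its pair of annotated starts) and Pfkp (chr13:6648722-6649021, minus strand). Capitals mark ACGTG or GCGTG, the core letters of the hypoxia response element, on either strand, so that CACGT and CACGC are the same motifs read on the other strand.
Pfkl: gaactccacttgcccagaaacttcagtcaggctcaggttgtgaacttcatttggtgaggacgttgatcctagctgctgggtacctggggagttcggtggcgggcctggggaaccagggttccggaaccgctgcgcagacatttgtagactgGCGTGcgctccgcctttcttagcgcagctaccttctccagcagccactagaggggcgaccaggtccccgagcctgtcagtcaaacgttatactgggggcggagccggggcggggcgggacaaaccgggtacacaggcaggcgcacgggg
Slc16a3: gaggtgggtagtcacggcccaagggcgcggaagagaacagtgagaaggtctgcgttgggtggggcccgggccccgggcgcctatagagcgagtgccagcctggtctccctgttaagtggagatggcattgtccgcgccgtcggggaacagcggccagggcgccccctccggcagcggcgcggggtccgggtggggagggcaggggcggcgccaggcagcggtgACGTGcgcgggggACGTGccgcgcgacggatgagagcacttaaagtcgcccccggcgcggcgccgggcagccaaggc
Pkm, upstream start: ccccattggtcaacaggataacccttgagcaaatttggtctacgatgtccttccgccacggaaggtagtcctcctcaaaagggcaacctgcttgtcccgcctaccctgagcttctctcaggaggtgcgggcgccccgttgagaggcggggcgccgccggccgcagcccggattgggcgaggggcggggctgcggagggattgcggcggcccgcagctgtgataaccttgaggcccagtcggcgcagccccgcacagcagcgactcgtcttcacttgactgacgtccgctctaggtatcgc
Pkm, downstream start: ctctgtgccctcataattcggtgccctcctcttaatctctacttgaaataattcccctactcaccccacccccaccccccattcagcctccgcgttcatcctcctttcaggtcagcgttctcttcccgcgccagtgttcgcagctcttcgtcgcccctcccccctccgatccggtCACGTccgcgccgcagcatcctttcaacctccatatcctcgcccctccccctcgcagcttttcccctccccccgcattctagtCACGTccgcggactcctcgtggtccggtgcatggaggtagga
Pfkp: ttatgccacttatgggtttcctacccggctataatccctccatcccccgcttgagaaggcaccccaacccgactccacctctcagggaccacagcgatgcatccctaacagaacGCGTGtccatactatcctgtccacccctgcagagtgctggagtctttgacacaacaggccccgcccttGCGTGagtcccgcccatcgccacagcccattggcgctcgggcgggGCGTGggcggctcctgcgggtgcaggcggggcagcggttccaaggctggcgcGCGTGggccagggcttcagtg

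In these windows Slc16a3 held 2 matches to ACGTG, the downstream Pkm start held 2, Pfkp held 4 matches to GCGTG, Pfkl held 1, and the upstream Pkm start held none. Across the 31 genes with a RefSeq promoter (Slc2a3 had no entry), 17 held ACGTG on either strand in at least 1 promoter, or 54.8%, against 30.4% of tested genes and 21.8% of all genes in the promoter table. GCGTG was present in 23 of 31 (74.2%), against 58.1% of tested genes and 35.2% of all genes. Counting either motif, 15 of the 17 matched genes that rose in KO held one (88.2%), and so did all 14 matched genes that did not rise, against 69.9% of tested genes. A gene counts if any of its promoters matches, and the 31 genes had 45 promoters, against 10958 promoters for 8557 tested genes. Counted by promoter, 82.2% of the members' promoters held either motif, against 63.5% for tested genes. The E-box CACGTG, which Myc binds and which contains ACGTG, was found in 4 of 31 genes (12.9%), against 12.0% of tested genes and 8.09% of all genes. A match describes letters in a window and is not evidence of binding.

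Glucose enters the cell through facilitative transporters, of which Slc2a1 (GLUT1) was the main one here. Slc2a1 had 222.1 and 264.6 CPM in KO, 118.9 and 118.7 in het, and 133.6 and 141.1 in wt. Both KO libraries lay above the other 4, and both het libraries lay below wt. The difference between KO and wt was 0.83 ± 0.12 on the log2 scale (SE, adjusted p = 1.80e-05), a 1.77-fold higher level. Slc2a3 (GLUT3), a high-affinity transporter, had 36.1 and 18.7 CPM in KO, 29.2 and 17.3 in het, and 8.63 and 15.2 in wt. It was 2.41-fold higher in KO than in wt (adjusted p = 0.0385), but the replicates were far apart, and the call was lost without KO 1 (log2 0.70, adjusted p = 0.213), without wt 4 (0.90, adjusted p = 0.288) with limma-voom (adjusted p = 0.0748) and with a trend on GC content and length removed (1.18, adjusted p = 0.0554).

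Hexokinases trap glucose inside the cell by phosphorylating it. Hk1, the form found in most tissues, had 224.8 and 207.6 CPM in KO, 128.9 and 117.6 in het, and 110.4 and 110.1 in wt. The KO libraries were 1.96-fold above wt (log2 0.97 ± 0.12, adjusted p = 2.29e-06), with no overlap with either other group. Hk2, an inducible form of muscle and growing cells, had 21.4 and 16.8 CPM in KO, 21.4 and 15.0 in het, and 4.28 and 9.49 in wt, so the het values overlapped those of KO and lay above wt. It was 2.93-fold higher in KO than in wt (log2 1.55 ± 0.37, adjusted p = 0.00253), a call lost without wt 4 (log2 1.05, adjusted p = 0.113) and with libraries thinned to equal totals (1.16, adjusted p = 0.0709). Slc2a3 and Hk2 were higher in KO 1, het 2 and wt 5 than in the other library of the same group, and the same 3 libraries held the higher macrophage sums given above. All 11 macrophage genes had counts in every group, and their part in these values was not tested.

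Phosphofructokinase commits the sugar to glycolysis, and 2 of its 3 subunit genes rose in KO. Pfkl, the liver-type subunit at chr10:77986947-78010083 on GRCm38, had 580.0 and 598.1 CPM in KO, 254.3 and 238.7 in het, and 260.7 and 239.8 in wt. The het and wt values were interleaved, and KO was 2.35-fold above wt (log2 1.23 ± 0.10, adjusted p = 5.81e-09), the smallest adjusted p of the 30 genes. Pfkp, the platelet-type subunit, had 202.3 and 215.0 CPM in KO, 83.8 and 106.8 in het, and 97.8 and 93.5 in wt, and was 2.18-fold higher in KO than in wt (adjusted p = 1.20e-06). The counts of Pfkp were not whole in any of the 6 libraries, and its exons overlap those of Pitrm1 on the opposite strand. Pfkm, the muscle-type subunit, averaged 19.2 ± 2.64 CPM in KO, 14.3 ± 3.04 in het and 12.6 ± 0.921 in wt, a log2 difference of 0.61 ± 0.29 between KO and wt that was not called (adjusted p = 0.116). Per kilobase of exon, the 3 subunit genes together held 108.3 to 110.8 CPM per kb in KO, 48.0 to 48.6 in het and 46.9 to 49.9 in wt.

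Pfkfb3 makes the sugar bisphosphate that activates phosphofructokinase, and it is known as a driver of endothelial sprouting. Its KO and wt levels overlapped, and both het libraries were highest: 61.4 and 64.0 CPM in KO, 87.6 and 69.1 in het, and 68.5 and 53.8 in wt. Neither het against wt (log2 0.32 ± 0.18, adjusted p = 0.676) nor KO against het (-0.30 ± 0.16, adjusted p = 0.175) was called. The log2 difference between KO and wt was 0.02 ± 0.17 (adjusted p = 0.941). Pfkfb4, a related enzyme, held 2 to 11 counts in the KO and wt libraries and was too low to test.

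The remaining steps of upper glycolysis moved less. Gpi1, which converts glucose phosphate to fructose phosphate, averaged 899.9 ± 12.0 CPM in KO, 632.4 ± 25.1 in het and 621.7 ± 20.2 in wt, 1.45-fold higher in KO than in wt (adjusted p = 9.19e-05), and overlaps Gm26762 on the opposite strand. Tpi1, which interconverts the triose phosphates, had 1122.1 and 1185.1 CPM in KO, 816.2 and 641.4 in het, and 738.0 and 675.8 in wt, and was 1.63-fold higher in KO than in wt (adjusted p = 3.00e-05). Aldoa, the main aldolase, which splits the sugar between them, differed little: 1272.0 and 1363.9 CPM in KO, 1215.7 and 1121.6 in het, and 1171.7 and 1137.8 in wt. Its log2 difference between KO and wt was 0.19 ± 0.09 (adjusted p = 0.101), and it was called only when no filter on low counts was used (0.24, adjusted p = 0.0349) or with scaling by library size alone (0.55, adjusted p = 4.91e-05). Aldoc, the brain-type aldolase, had counts in KO 2 alone, with 4.

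Lower glycolysis yields ATP and pyruvate, and its last steps changed more than its first. Eno1, the ubiquitous enolase, had 2842.0 and 3107.4 CPM in KO, 1998.4 and 1738.7 in het, and 1815.6 and 1854.8 in wt, 1.62-fold higher in KO than in wt (adjusted p = 3.73e-06). Pkm, the pyruvate kinase gene of non-liver tissues, had 3131.5 and 3142.0 CPM in KO, 2016.9 and 1851.0 in het, and 1864.8 and 1683.9 in wt, 1.77-fold higher in KO than in wt (adjusted p = 2.66e-07). Both KO libraries exceeded the other 4 for each gene, and het lay near wt. Gene counts cannot tell the spliced forms of Pkm apart. Pgam1, the phosphoglycerate mutase, averaged 782.2 ± 2.25 CPM in KO, 583.3 ± 64.4 in het and 557.9 ± 17.5 in wt, 1.40-fold higher in KO than in wt (adjusted p = 4.70e-04).

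Gapdh and Pgk1, the pair of enzymes that turn triose phosphate into phosphoglycerate, were the least changed of this stretch. Gapdh averaged 1506.7 ± 109.8 CPM in KO, 1368.4 ± 147.1 in het and 1236.3 ± 27.9 in wt (SD, n = 2 each). It was 1.22-fold higher in KO than in wt (log2 0.29 ± 0.09, adjusted p = 0.0223), a call that did not survive leaving out KO 1 (0.21, adjusted p = 0.226), wt 4 (0.35, adjusted p = 0.0562) or wt 5 (0.27, adjusted p = 0.123). With a trend on GC content and length removed, its difference was 0.16 (adjusted p = 0.211). Pgk1, on the X chromosome, averaged 793.1 ± 12.1 CPM in KO, 869.1 ± 33.9 in het and 884.6 ± 6.45 in wt, a log2 difference of -0.16 ± 0.09 that was not called (adjusted p = 0.178) and was 0.21 with scaling by library size alone (adjusted p = 0.0658). Gapdh and Pgk1 have many processed copies, and the deposited counts of Gapdh were not whole in all 6 libraries, as happens where reads match several genes. A chosen list of 9 copies and relatives of members, among them Eno1b and Pgk1-rs7, together held at most 9.07 CPM in a library. That list may leave out other processed copies, and the source of the Gapdh counts that were not whole was not tested.

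From uptake to pyruvate, 12 of 15 tested genes rose in KO against wt and none fell, with a median log2 fold change of 0.71. At an unadjusted p under 0.05 in edgeR, 14 were higher and 0 lower, against 19.7% and 22.1% of all tested genes. DESeq2 called 12 higher and 0 lower, against 9.82% and 12.9%, and limma-voom called 11 higher and 0 lower, against 13% and 17.6%. The genes not called by edgeR at an adjusted p under 0.05 were Pfkm, Aldoa and Pgk1, and limma-voom also did not call Slc2a3.

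Pyruvate that does not enter mitochondria is reduced to lactate by lactate dehydrogenase and leaves the cell through monocarboxylate transporters. Ldha, the subunit that favours lactate formation, had 2801.9 and 3031.1 CPM in KO, 2049.0 and 1750.2 in het, and 1872.5 and 1825.7 in wt, 1.58-fold higher in KO than in wt (log2 0.66 ± 0.09, adjusted p = 9.06e-06). Ldhb, the heart-type subunit that favours lactate use, ran the other way, with 14.7 and 24.6 CPM in KO, 38.5 and 34.5 in het, and 28.3 and 31.6 in wt. Both KO libraries were lowest and both het libraries highest. Its call in KO against het was lost with scaling by library size alone (-0.52, adjusted p = 0.0957), where the median of all tested genes was 0.36. The log2 difference in Ldhb was -0.61 ± 0.26 between KO and wt (adjusted p = 0.0717, not called) and -0.90 ± 0.25 between KO and het (adjusted p = 0.00877). Leaving out KO 1 ended the KO against het call (-0.55, adjusted p = 0.132), and leaving out KO 2 brought a call in KO against wt (-1.01, adjusted p = 0.0099).

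The cardiomyocyte and the mural and fibroblast sums followed the same order as Ldhb, a gene that heart muscle also expresses. Of the 14 genes of each list, 13 had counts in KO, 14 in het and 13 in wt. In KO against het, all 10 tested cardiomyocyte genes and 5 of 9 tested mural genes were lower, where 17.2% of all tested genes were, and with scaling by library size alone 8 and 4 were, where 9.28% were. Their part in the Ldhb values was not tested.

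Both lactate carriers rose, and Slc16a1 had the largest rise of the 30 genes in KO against wt on the log2 scale. Slc16a1 (MCT1), a carrier that moves lactate in either direction, lies at chr3:104638668-104658462 and had 54.7 and 51.7 CPM in KO, 17.8 and 12.2 in het, and 13.3 and 17.1 in wt. KO was 3.56-fold above wt (log2 1.83 ± 0.24, adjusted p = 4.89e-06) and 3.70-fold above het (adjusted p = 3.37e-06). Slc16a3 (MCT4), the carrier typical of lactate-exporting cells, had 192.3 and 219.9 CPM in KO, 110.4 and 81.3 in het, and 79.6 and 74.7 in wt. KO was 2.66-fold above wt (log2 1.41 ± 0.14, adjusted p = 2.23e-07), and both het libraries lay above wt without a call (0.28 ± 0.16, adjusted p = 0.677). Bsg, which encodes the chaperone that brings both carriers to the cell surface, had 409.5 ± 11.5 CPM in KO, 348.6 ± 46.8 in het and 410.0 ± 2.59 in wt.

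At the gate to the mitochondria, pyruvate dehydrogenase is switched off by its kinases. Pdk1, a kinase known to be induced in hypoxia, had 126.8 and 144.5 CPM in KO, 90.4 and 66.3 in het, and 84.8 and 82.9 in wt, 1.62-fold higher in KO than in wt (log2 0.69 ± 0.15, adjusted p = 0.00113). The catalytic subunit gene Pdha1, which overlaps Map3k15 on the opposite strand, had 124.4 and 127.1 CPM in KO, 96.9 and 94.6 in het, and 91.6 and 121.5 in wt. Its difference of 0.25 ± 0.14 between KO and wt was not called (adjusted p = 0.179). Pdk3 averaged 38.2 CPM in KO, 27.1 in het and 34.9 in wt and was not called (log2 0.14, adjusted p = 0.634). Pdha1, Pdk3, Pgk1 and G6pdx lie on the X chromosome. Xist, the RNA of the silenced X of female cells, averaged 26.2 ± 5.53 CPM in KO, 253.9 ± 35.5 in het and 86.4 ± 33.9 in wt, so the libraries may hold embryos of each sex in unequal parts, and the part of this in the X-linked genes was not tested.

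**Figure D2:**
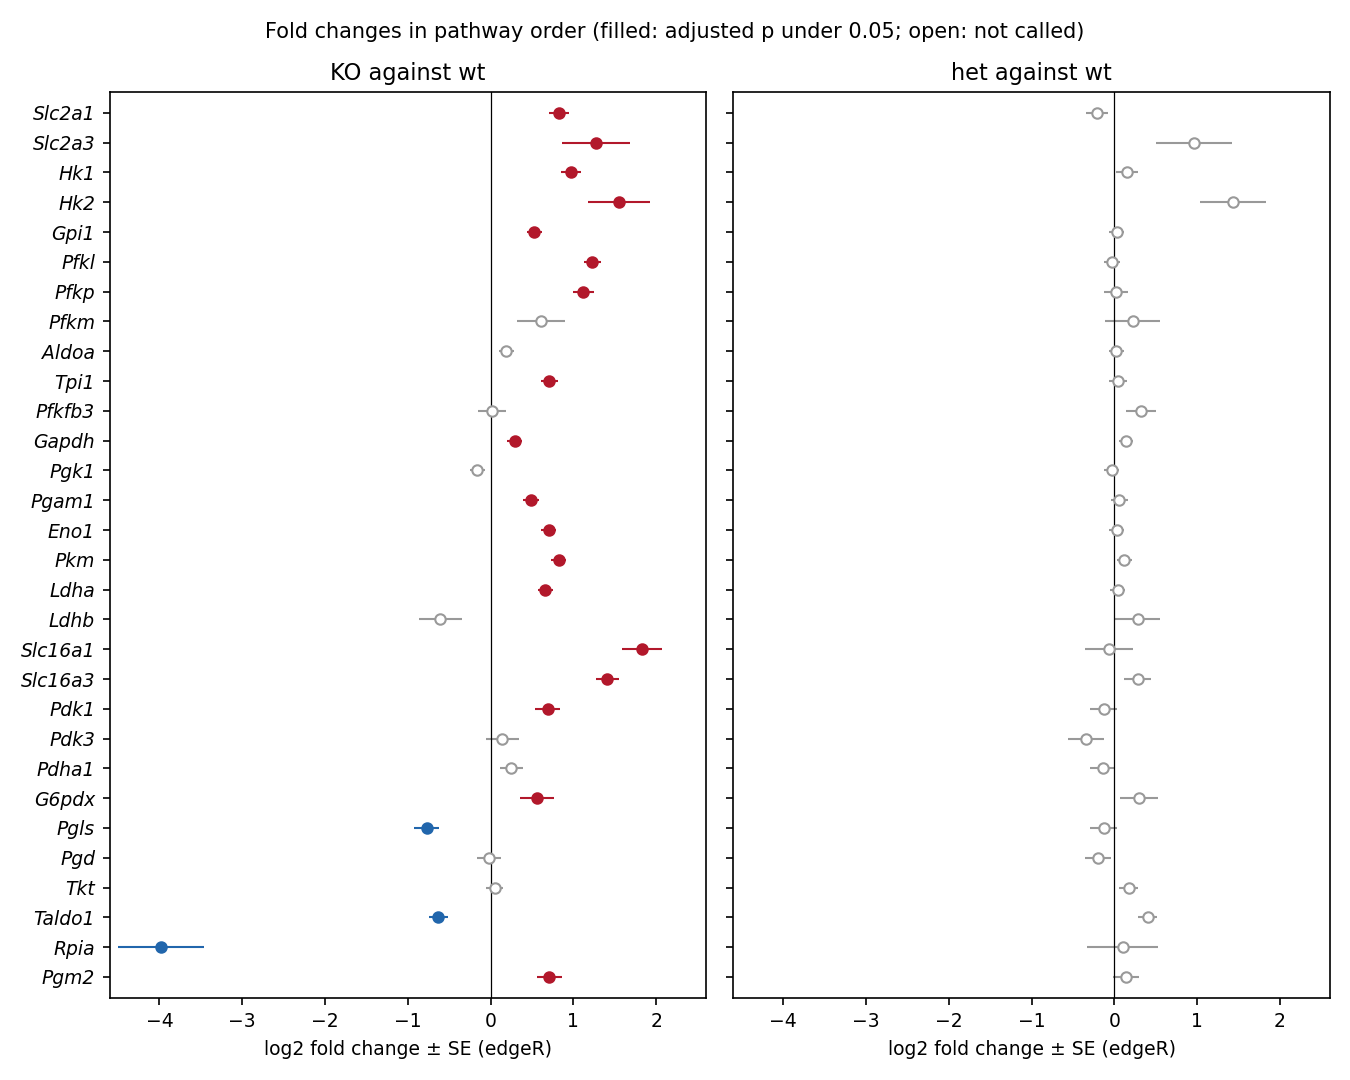
Log2 fold changes with standard errors for the 30 tested genes in pathway order, KO against wt on the left and het against wt on the right; filled points have an adjusted p under 0.05 and open points are not called. On the left 18 genes lie to the right of 0 and 3 to its left as called, while on the right no gene is called.

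The pentose phosphate branch changed in both directions. Of its 6 genes and the ribose-linked Pgm2, 2 were higher in KO than in wt and 3 were lower, beside 14.7% and 17.3% of all tested genes, with a median log2 fold change of -0.02. In the oxidative arm, which makes NADPH, the entry enzyme G6pdx averaged 44.1 ± 6.42 CPM in KO, 36.5 ± 3.21 in het and 30.4 ± 5.40 in wt (log2 0.56 ± 0.21, adjusted p = 0.0436). That call was lost under 7 of the alternatives, among them DESeq2 (adjusted p = 0.167) and leaving out KO 2 (0.41, adjusted p = 0.251), wt 4 (0.41, adjusted p = 0.332) or wt 5 (0.74, adjusted p = 0.0574). G6pdx also shares exon sequence with Ikbkg on the opposite strand, and the libraries do not mark strand. Pgls, the next enzyme, had 47.3 and 51.9 CPM in KO, 85.5 and 71.2 in het, and 85.2 and 84.2 in wt, 1.71-fold lower in KO than in wt (log2 -0.77 ± 0.15, adjusted p = 5.29e-04). Its exons overlap those of Fam129c. Pgd, the last oxidative enzyme, had 85.8 and 105.5 CPM in KO, 95.4 and 76.1 in het, and 100.6 and 93.0 in wt, with overlapping groups (log2 -0.02 ± 0.15, adjusted p = 0.923).

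The non-oxidative arm, which links ribose phosphate to glycolytic sugars, held the strongest fall among the members. Rpia, which makes ribose phosphate and lies at chr6:70765720-70792232, had 0.779 and 0.848 CPM in KO, 10.7 and 17.1 in het, and 15.0 and 11.4 in wt. These levels rest on 6 and 5 counts in KO, 15 and 49 in het, and 35 and 18 in wt. Both KO libraries were far below every other library although they were the deepest. Rpia was 15.8-fold lower in KO than in wt (log2 -3.98 ± 0.52, adjusted p = 5.91e-06) and 16.9-fold lower than in het (adjusted p = 3.73e-06). The genes beside it on the chromosome did not share a direction: Eif2ak3 was higher in KO than in wt (log2 0.72, adjusted p = 0.00701), Krcc1 lower (-0.83, adjusted p = 0.00141) and Thnsl2 not called (0.25, adjusted p = 0.762). These neighbours were looked up after the Rpia value was seen.

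Taldo1, the transaldolase, had 136.8 and 128.2 CPM in KO, 280.6 and 260.3 in het, and 192.2 and 219.0 in wt. The 3 groups did not overlap, and het lay outside the range between wt and KO. Taldo1 was 1.55-fold lower in KO than in wt (log2 -0.63 ± 0.11, adjusted p = 1.81e-04) and 2.04-fold lower than in het (-1.03 ± 0.11, adjusted p = 4.69e-07). Scaling by library size alone, where the median of all tested genes was 0.35, ended the KO against wt call (-0.27, adjusted p = 0.0612). The cardiomyocyte and the mural and fibroblast sums had the same order of groups as Taldo1, and their part in it was not tested. Tkt, the transketolase, had 229.7 and 242.1 CPM in KO, 267.1 and 247.1 in het, and 226.0 and 228.4 in wt (KO against wt log2 0.05 ± 0.10, adjusted p = 0.734). Pgm2, a phosphopentomutase that moves the phosphate of ribose, had 117.7 and 125.2 CPM in KO, 93.3 and 72.9 in het, and 70.6 and 77.8 in wt, and was 1.64-fold higher in KO than in wt (log2 0.71 ± 0.15, adjusted p = 7.24e-04).

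Where several genes share a step, levels were compared per kilobase of merged exons, as each gene's share of its family. Slc2a1 held 92.7% and 96.7% of the transporter pair in KO, 89.4% and 93.4% in het, and 97.0% and 95.1% in wt. Hk1 held 88.8% ± 1.15 of the hexokinase pair in KO, 82.7% ± 2.64 in het and 91.9% ± 4.05 in wt. Pfkl held 80.5% ± 0.429 of the phosphofructokinases in KO, 76.5% ± 4.17 in het and 77.4% ± 1.12 in wt (SD, n = 2 each). In each of these families the same gene was the main one in all 6 libraries.

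Ldhb and the carriers were less even. Ldhb held 1.09% and 1.68% of lactate dehydrogenase per kb in KO, 3.81% and 4.00% in het, and 3.08% and 3.53% in wt, so both KO libraries lay below the other 4. Slc16a1 held 23.8% ± 2.42 of the carriers in KO, 15.8% ± 0.668 in het and 19.1% ± 3.45 in wt. Pdk1 held 53.8% ± 2.04 of the kinase pair in KO, 48.5% ± 7.40 in het and 44.2% ± 2.79 in wt. When exon length was not divided out, its share was 78.0% in KO, 73.9% in het and 70.6% in wt. Which kinase gene was the main one in het and wt therefore depends on the scale. With 2 libraries against 2, the smallest two-sided p that an exact permutation test of a share can give is 0.33, and no test was made.

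**Figure D3:**
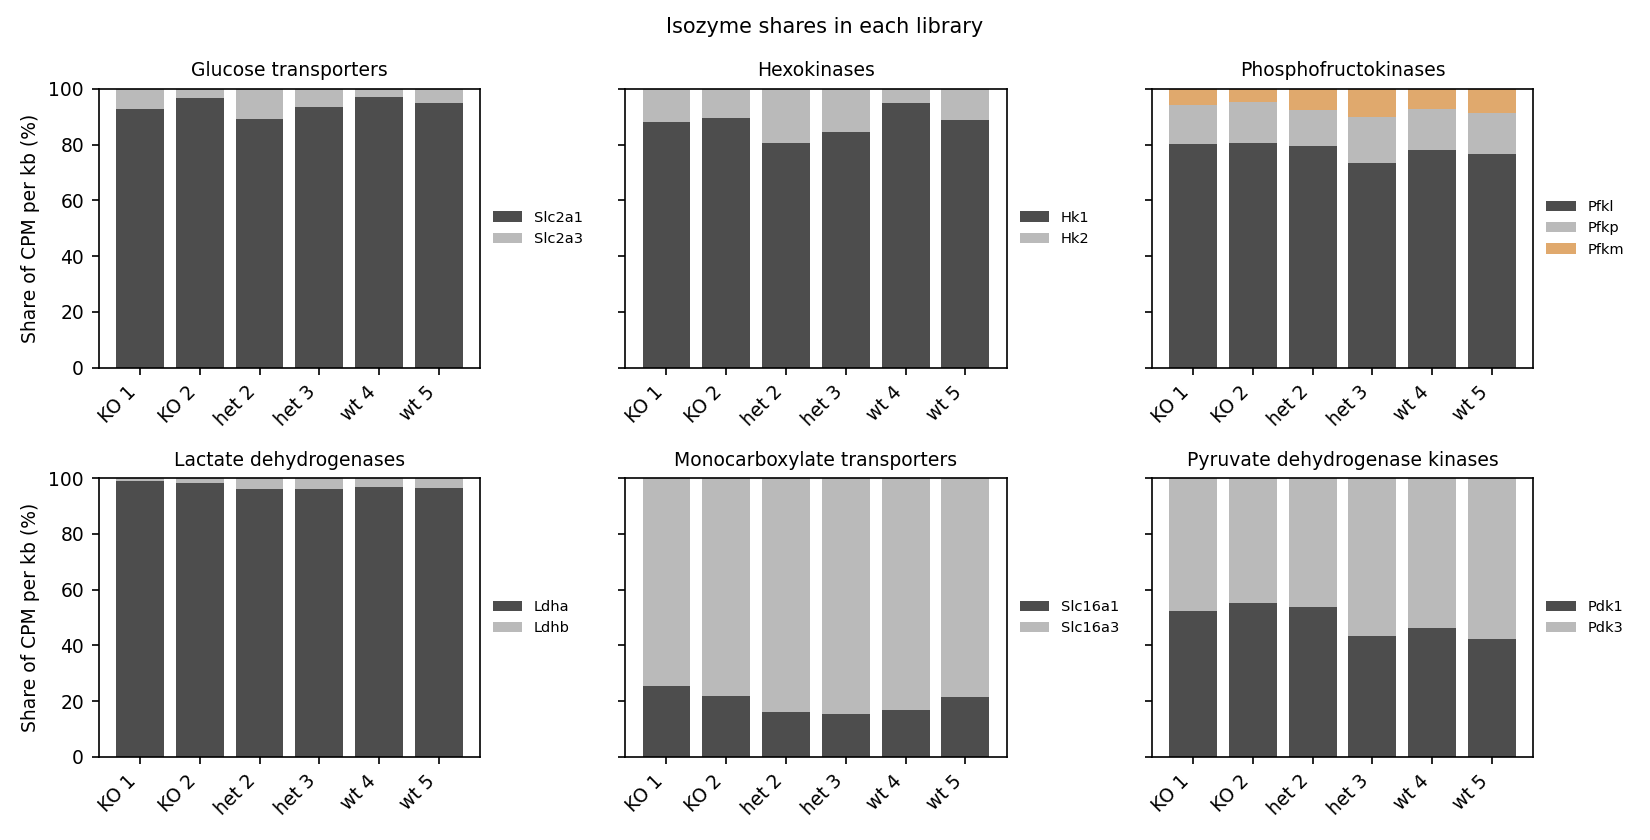
Stacked bars of each gene's share, in percent of CPM per kb, of its isozyme family in each library, with KO, het and wt libraries from left to right in 6 families. Ldhb is a sliver throughout and is thinnest in KO, at 1.09% and 1.68%, while Pfkl fills 73.5% to 80.8% of phosphofructokinase in every library.

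The comparison of het with wt gave few calls over the whole genome. In het against wt, 0 of the 30 genes were called in either direction by edgeR, where 0.128% of all tested genes were higher and 0.0457% lower, and the median log2 fold change was 0.05. At an unadjusted p under 0.05 there were 2 genes, Hk2 and Taldo1, where 8.15% of all tested genes passed, and both DESeq2 and limma-voom called 0. Hk2 was higher in het by log2 1.43 ± 0.40 (edgeR unadjusted p = 0.00176, adjusted p = 0.199), and was called when no filter on low counts was used (adjusted p = 0.0345). Taldo1 was higher in het by 0.40 ± 0.11 (edgeR unadjusted p = 0.00229, adjusted p = 0.225). Both het libraries lay above both wt libraries for 10 genes (33.3%, against 19.2% of all tested genes) and below them for 2 (6.67%, against 18.8%).

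The comparison of KO with het shares the KO libraries with that of KO with wt, so the values stand side by side. Of the 30 genes, 15 were higher and 4 lower, where 13.9% and 17.2% of all tested genes were, and the median log2 fold change was 0.41 against -0.02 for all tested genes. Both KO libraries lay above both het libraries for 19 genes (63.3%, against 31.5% of all tested genes) and below them for 7 (23.3%, against 33%). Slc2a1 was higher in KO by log2 1.03 ± 0.12 against het (adjusted p = 1.34e-06) and by 0.83 against wt, and Pfkl by 1.26 against het (adjusted p = 5.01e-09) and by 1.23 against wt. Hk2 differed by 0.12 between KO and het (adjusted p = 0.817) and by 1.55 between KO and wt. The genes lower in KO were Ldhb, Pgls, Taldo1 and Rpia, with Pgls at -0.64 (adjusted p = 0.00302). The calls of Pgls (-0.26, adjusted p = 0.173) and Ldhb were lost with scaling by library size alone, where the median of all tested genes was 0.36. Pdha1 was called higher at 0.40 (adjusted p = 0.0361), but lost the call whichever KO or het library was left out (adjusted p 0.0696 to 0.136).

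A further contrast set het against the midpoint of the KO and wt log2 levels, which asks whether losing 1 allele gives an intermediate level. At an adjusted p under 0.05, het was called below that midpoint for 11 of the 30 genes, where 3.68% of all tested genes were. It was called above the midpoint for 2, where 7.81% were. Other genes lay to either side without a call. Those called below were Slc2a1, Hk1, Pfkl, Pfkp, Tpi1, Eno1, Pkm, Ldha, Slc16a1, Slc16a3 and Pdk1. Among them Slc2a1 lay -0.62 from the midpoint (adjusted p = 6.87e-04), Pfkl -0.64 ± 0.09 (adjusted p = 4.51e-05) and Slc16a1 -0.97 ± 0.24 (adjusted p = 0.0097). Those called above were Taldo1, by 0.71 (adjusted p = 3.09e-05), and Rpia, by 2.09 ± 0.39 (adjusted p = 0.00112). Leaving out het 3 or KO 2 lowered the number of calls, both among the 30 genes and among all tested genes. Without het 3 the members' median log2 distance from the midpoint moved from -0.20 to -0.12. Without het 3 the calls of Eno1, Pkm, Ldha, Tpi1, Pdk1, Hk1, Slc16a1, Slc16a3 and Rpia were lost. The call of Hk1 was lost whichever library was left out, that of Slc16a3 in 7 of the alternatives and that of Pdk1 in 6. DESeq2 called 8 genes below the midpoint and 2 above, where 1.81% and 5.3% of all tested genes were. The counts with limma-voom were also 8 and 2, where 1.93% and 6.91% were.

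Lists of related genes were taken beside the route. In the main fit 14.7% of all tested genes were called higher in KO against wt and 17.3% lower, the shares to set beside each list below. Scaling by library size alone, under which 35.4% were called higher and 9.44% lower, changed the lists' counts and is given with each. Of 36 further isozymes and transporters, such as liver- and muscle-specific forms, 14 could be tested and 2 were higher in KO against wt: Prps1, which makes the nucleotide precursor from ribose phosphate (log2 0.65, adjusted p = 0.0138), and Slc2a10, a transporter relative (1.35, adjusted p = 0.0399). DESeq2 called neither, the median was 0.24, and scaling by library size alone gave 7 higher and 0 lower. Of 12 pyruvate entry genes, 3 rose: Pdk4, a further dehydrogenase kinase (2.38 ± 0.52, adjusted p = 0.00132), Pcx, the carboxylase that refills the TCA cycle (1.30 ± 0.32, adjusted p = 0.00323), and Dlat, a subunit of the dehydrogenase (0.65 ± 0.17, adjusted p = 0.00533), with a list median of 0.13 and 6 higher by library size alone. Pdk4 was low throughout, with 11.9 ± 3.17 CPM in KO, 3.17 ± 0.453 in het and 2.13 ± 1.22 in wt.

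In the TCA cycle 7 of 22 genes rose in KO against wt and 1 fell, beside 14.7% and 17.3% of all tested genes, with a median of 0.11. Scaling by library size alone gave 15 and 0, beside 35.4% and 9.44%. Sdha, the catalytic subunit of succinate dehydrogenase, had 411.4 ± 11.2 CPM in KO, 235.3 ± 0.614 in het and 226.6 ± 10.8 in wt (log2 0.86 ± 0.10, adjusted p = 1.17e-06). Ogdh, a subunit of the oxoglutarate dehydrogenase, rose by 0.82 ± 0.12 (adjusted p = 1.53e-05), Cs, citrate synthase, by 0.59 ± 0.10 (adjusted p = 1.59e-04), and Me2, a mitochondrial malic enzyme, by 0.86 ± 0.15 (adjusted p = 1.86e-04). The gene that fell, Sdhc, another succinate dehydrogenase subunit, did so by -0.40 ± 0.14 (adjusted p = 0.0336), which scaling by library size alone reduced to -0.03 (adjusted p = 0.863).

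Of 25 tested genes of glycogen and other hexose routes, 5 rose and 2 fell, with a median of 0.07, against 12 and 2 with scaling by library size alone. Pgm1, the phosphoglucomutase between glycogen and glycolysis, rose by 1.10 ± 0.15 (adjusted p = 1.20e-05), with 113.1 ± 11.5 CPM in KO, 64.2 ± 3.94 in het and 52.1 ± 5.05 in wt. Pygb, a glycogen phosphorylase, rose by 0.89 ± 0.13 (adjusted p = 1.55e-05). Pgm2l1, a relative of Pgm2 that makes glucose bisphosphate, was 2.83-fold lower in KO than in wt (adjusted p = 2.04e-06), and Gfpt1, the entry enzyme of hexosamine synthesis, fell by 0.97 (adjusted p = 1.70e-04). Of 13 tested NADPH and redox genes, 3 rose and 3 fell, with a median of 0.06, against 6 and 0 with scaling by library size alone. Txnrd1, a thioredoxin reductase, rose by 0.68 ± 0.11 (adjusted p = 5.56e-05), Nnt, the mitochondrial transhydrogenase, by 1.11 ± 0.20 (adjusted p = 2.29e-04) and Gclc, of glutathione synthesis, by 0.94 ± 0.22 (adjusted p = 0.00232). Nfe2l2, the regulator NRF2, fell by 0.62 (adjusted p = 9.65e-04). With scaling by library size alone Nfe2l2 was at -0.26 (adjusted p = 0.116), and the other falls, of Gpx4 and Gpx1, were also lost.

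**Figure D4:**
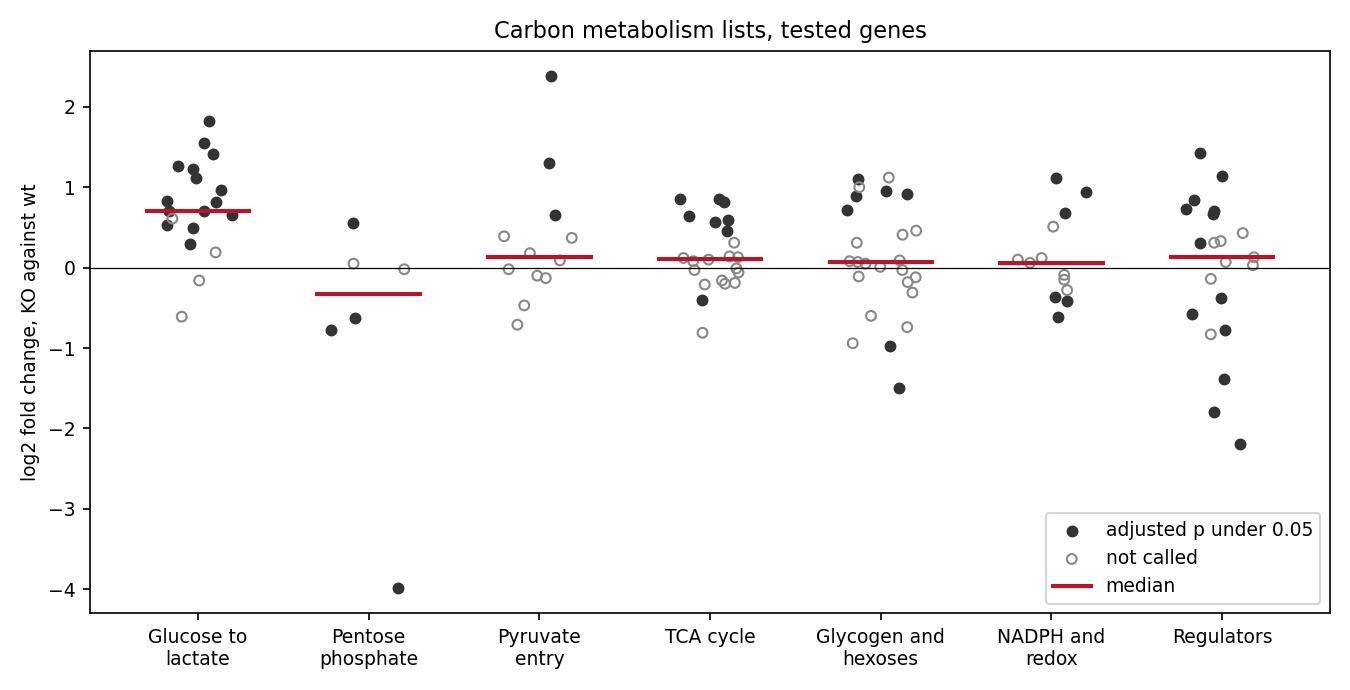
Log2 fold change in KO against wt for every tested gene of 7 lists, the further isozymes not among them, with filled points for an adjusted p under 0.05, open points for genes not called and a bar at each median. Most glucose-to-lactate genes lie above 0, while the other lists scatter around it, with medians of 0.06 to 0.13 for the 5 lists drawn outside the members.

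Known transcriptional regulators of glycolysis changed in both directions. Of 21 tested, 7 were higher and 6 lower in KO against wt, beside 14.7% and 17.3% of all tested genes, with a median of 0.13. Scaling by library size alone gave 11 and 3, beside 35.4% and 9.44%, and Foxo1, Klf2 and Mlxip were no longer called lower. Myc, an activator of glycolytic genes, had 152.5 and 161.0 CPM in KO, 114.7 and 122.1 in het, and 60.4 and 56.3 in wt. It was 2.68-fold higher in KO than in wt (adjusted p = 7.07e-08), and it was the only gene of the list called in het against wt (log2 1.02 ± 0.14, adjusted p = 0.00113). Its relative Mycn rose by 1.14 ± 0.17 in KO against wt (adjusted p = 3.21e-05). Mxd4, which opposes Myc on shared sites, had 28.9 ± 5.09 CPM in KO, 77.6 ± 3.10 in het and 100.9 ± 7.67 in wt (-1.79 ± 0.16, adjusted p = 4.48e-08). Related genes of the list did not share its direction. In KO against wt Mxi1 was higher (0.73 ± 0.17, adjusted p = 0.00223) and Mnt lower (-1.39 ± 0.42, adjusted p = 0.0134). Mxd1 was not called (0.43 ± 0.34, adjusted p = 0.358).

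Among the hypoxia-inducible factors, Epas1 (HIF2 alpha), abundant in endothelium, had 76.9 and 85.7 CPM in KO, 309.8 and 306.8 in het, and 381.0 and 359.4 in wt, 4.56-fold lower in KO than in wt (adjusted p = 3.98e-12). Hif1a had 251.3 and 241.7 CPM in KO, 153.8 and 161.9 in het, and 208.9 and 188.6 in wt. It was 1.24-fold higher in KO than in wt (log2 0.31 ± 0.11, adjusted p = 0.0326), and het lay below both groups. Both factors are controlled mainly at the protein level, which RNA does not show. Txnip, which restrains glucose uptake and is known to follow glucose supply, had 85.7 ± 13.0 CPM in KO, 90.4 ± 2.11 in het and 95.4 ± 5.63 in wt (-0.14 ± 0.14, adjusted p = 0.484).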

How the data were processed

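Expected counts per gene were deposited by the authors as 1 table with a column for each of the 6 libraries; per the submitters' processing notes, CASAVA, cutadapt and RSEM were used on GRCm38, with no versions given. Per the labels' protocols, cDNA came from the SMART-Seq v4 kit and Nextera XT was used for the libraries, which does not mark strand. RSEM shares reads that match several genes, so that 4.29% to 5.87% of the values in a library were not whole. The labels disagree on single or paired reads.

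Expected counts were rounded and tested in R 4.3.3 with edgeR 4.0.16 (TMM, filterByExpr with a minimum count of 10, robust quasi-likelihood fit of all 6 libraries, 3 residual degrees of freedom, 10952 genes tested, adjusted p under 0.05, two-sided). CPM and mean ± SD use 2 libraries per group, and depth sets the precision of low genes. Symbols, exon lengths and positions came from GENCODE M21 on GRCm38, which matched 97.9% of identifiers. Alternatives included DESeq2 1.42.0, limma-voom (limma 3.58.1), other scalings, no filter, thinning, a GC and length trend, and leaving out each library. The members, lists and naming rule were chosen with earlier results of these data known. Members were named as the most expressed gene of a step, or by a call of at least 0.8 on the log2 scale in KO against wt, a call in het or off the midpoint, or a call lower in KO, and the rest were added for completeness. From each list up to 4 genes with the smallest adjusted p in KO against wt were named, with Myc, Hif1a and Txnip. Other genes named were Bsg, Sdhc, Gpx1, Gpx4, Foxo1, Klf2, Mlxip, Mxi1, Mnt, Mxd1, Xist, Lars2, the endothelial markers and the Rpia neighbours, chosen after their values were seen.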

Additional observations from a re-analysis of the deposited data

How the results depend on the processing

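No paired analysis was possible because no pair of groups shares more than 1 replicate number. In KO against wt the number of the 30 genes called higher, 18 in the report, ranged from 14 without wt 4 to 23 with scaling by library size alone (35.4% of all tested genes), and the number called lower, 3, from 2 to 4. The members' median log2 fold change was 0.56 with the GC and length trend removed. Scaling by library size alone moved the median of all tested genes in KO against wt to 0.35 and that of the 30 genes to 0.95. A change of scaling moves every gene of a comparison by nearly the same amount. The gap between these medians therefore cannot show whether the result depends on scaling. In KO against het the same scaling gave 23 genes higher and 2 lower (35.9% and 9.28% of all tested genes), in place of 15 and 4, and turned the uncalled differences of Pgk1 to 0.25 (adjusted p = 0.0287) and of Tkt to 0.26 (adjusted p = 0.0472). In het against wt, no filter on low counts gave 1 gene called higher, Hk2. Off the midpoint, leaving out a library gave 4 to 12 calls, against 13. Low counts limit Rpia, Hk2, Slc2a3, Ldhb and Pdk4. Shares of isozymes moved when exon length was not divided out; for Slc2a1 the KO share was then 89.7%, the het share 83.8% and the wt share 92.1%. The causes were not tested.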
